A study of Mus musculus with 3 samples.

Results

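The genes described here are 10 transcription factors that hold T cells in a resting state or fix their identity, namely Tcf7, Lef1, Tox, Foxo1, Foxo3, Foxp1, Bcl11b, Satb1, Ets1 and Myb. They were chosen by symbol in GENCODE annotation M21, and all 10 were found among the 55536 genes quantified. Polyadenylated RNA had been sequenced from mouse regulatory T cells (Tregs) that had experienced inflammation, taken at 12 weeks of age. Their source is labelled as activated Tregs. The 3 libraries are named technical replicates 1 to 3 of biological replicate 1, from 1 donor, so they form 1 group with no uninflamed reference. No source used here gives the inflammatory treatment, the genotype, the sorting gate or the donor's sex. Every error below is a standard deviation (SD) over these 3 libraries and says nothing about the spread between mice.

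Tcf7, which encodes TCF-1, and Lef1 are high mobility group (HMG) box factors that bind beta-catenin through their amino terminus and keep T cells in a naive or memory-like state. Foxo1 and Foxo3 are forkhead factors that Akt expels from the nucleus after growth factor or antigen receptor signals, and Foxp1 is a forkhead factor that maintains naive T cell quiescence. Bcl11b and Satb1 shape T cell chromatin, Ets1 binds many T cell enhancers, Myb acts in progenitors and dividing cells, and Tox is an HMG-box factor of CD4 T cell development and of T cell exhaustion.

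Expected counts are reads that a model divides among genes, so they can hold fractions. They totalled 35592206, 31611422 and 37728241 over genes in libraries 1 to 3. Of the labelled cell type, 6 of 6 T cell and 6 of 6 Treg markers were detected. Detected means a TPM of 1 or more in all 3 libraries (TPM, abundance per transcript length on a scale with a fixed sum). Detection alone does not tell cell types apart. By level, T cell markers averaged between 380 and 3399 TPM and Treg markers between 97.6 and 881.5 TPM. Of the thymocyte markers, Rag1, Rag2, Dntt and Ptcra averaged under 1 TPM, and 1 of 6 was detected (Cd1d1, at 131 ± 24.1 TPM). Other detected markers were 5 of 6 for B cells with a summed level between 55.7 and 63.7 TPM, 1 of 2 for CD8 T cells (Cd8b1, at 19.2 ± 3.73 TPM), 1 of 6 for myeloid cells, 1 of 4 for NK cells and 0 of 3 for progenitors. Library 3 stood apart, with 5 gland genes summing to 54670 TPM, against 4.56 TPM in library 1 and 10.9 TPM in library 2. TPM values share 1 total, so these gland transcripts lower every other TPM in library 3.

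All 10 factors were detected, against 47.6% of 22028 protein-coding genes. Their mean levels ran between 2.85 and 765 TPM with a median of 145 TPM, and 6 exceeded 100 TPM, while the median protein-coding gene stood at 1.04 TPM. Ets1 led and alone made up 37.2%, 33.9% and 35.6% of the summed TPM of the 10 factors in libraries 1 to 3. Tcf7 came next, then Bcl11b, Foxp1, Lef1, Tox, Foxo1, Satb1, Myb and Foxo3. Neighbours in this order did not overlap between libraries, except for Bcl11b with Foxp1 and Foxo1 with Satb1. Without library 3, Foxp1 averaged 248 TPM and Bcl11b 239.5 TPM, which swaps these 2, and no other place in the order changed. Fewer cells with a transcript and less RNA per cell cannot be told apart in such bulk RNA.

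**Figure D1:**
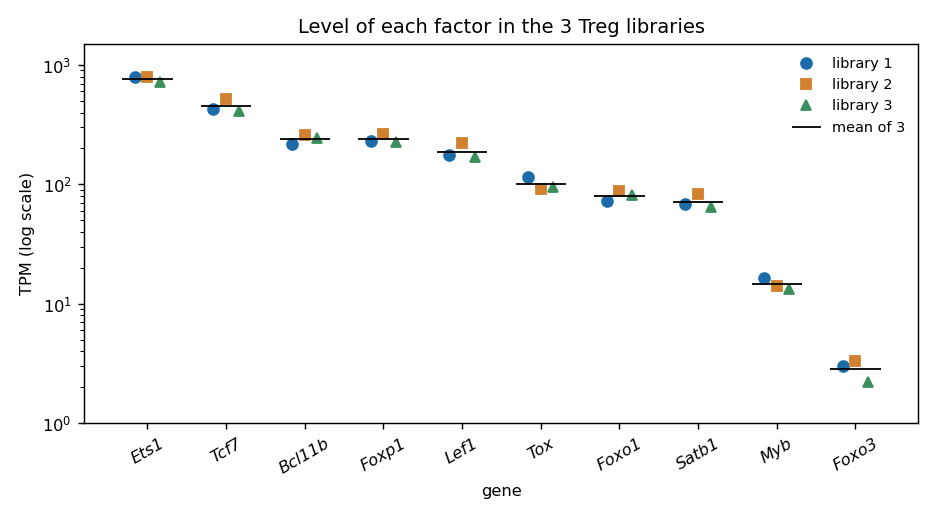
TPM of each factor on a log axis, with a symbol for each library and a bar at the mean of the 3. Ets1 lies between 720.2 and 788 TPM and Foxo3 between 2.22 and 3.32 TPM, and the symbols of Bcl11b and Foxp1 overlap.

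Tcf7 (ENSMUSG00000000782.15, mm10 chromosome 11, 52252371 to 52283014, minus strand) had 431, 515 and 408 TPM in libraries 1 to 3, and averaged 451 ± 56.6 TPM. Library 2 was highest and library 3 lowest in TPM, while in counts scaled for depth by edgeR (TMM scaling, a trimmed mean over genes) library 1 was lowest, for Lef1 too. Lef1 (ENSMUSG00000027985.14, chromosome 3, 131110471 to 131224356, plus strand) had 175, 221 and 169 TPM, and averaged 188 ± 28.2 TPM. It followed the same order of libraries, and the ranges of Tcf7 and Lef1 did not overlap. Tcf7 stood 2.40-fold above Lef1, with differences of 1.30, 1.22 and 1.26 in log2(TPM + 1). For this and the other 5 pairs of related factors, p was 0.25 in an exact two-sided permutation test that flips signs over libraries (0.25 also after Benjamini-Hochberg adjustment over the 6 pairs), the smallest p that 3 libraries allow.

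The Lef1 locus gave most of its transcript from a start inside the gene. Lef1-203, which begins 2326 bases downstream of the first annotated start, took 57.0%, 55.8% and 53.7% of Lef1 TPM in libraries 1 to 3. Lef1-201, which begins at the first start, took 19.8%, 19.2% and 21.2%. The authors' bounds on the TPM of these transcripts did not overlap in any library, and Lef1-203 stood 2.78-fold above Lef1-201. These bounds need not contain the TPM given here. For the whole Lef1 gene in library 1 they ran from 160 to 168, around a posterior mean TPM of 164, while the TPM was 175. Lef1-203 holds 331 coding codons and Lef1-201 holds 397, because Lef1-203 lacks 69 codons of the amino terminus and has 3 of its own. The 30 coding bases at each start are shown here because they tell the forms apart, with the start codon in capitals (mm10 plus strand, read across an exon junction in Lef1-203).
Lef1-203: ATGgcaggggtggtcagacaagccccgtcc
Lef1-201: ATGccccaactttccggaggaggcggcggg

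All transcripts from the downstream start together took 73.3%, 76.1% and 70.2% of Lef1 TPM, and those from the first start took 22.2%, 20.3% and 24.2%. The downstream group includes Lef1-206, a noncoding transcript with a retained intron, at 15.8%, 19.4% and 15.8%. Library 2 was its highest. The split between Lef1-203 and Lef1-201 rests on first exons that differ in size, with 24 exonic bases found only in Lef1-203 and 1208 found only in Lef1-201. Gm43352, an antisense gene whose span covers that first Lef1-201 exon, stood at 2.36 ± 0.31 TPM.

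A RefSeq promoter window is shown for each start, since the shares of the starts differ. The windows run between 250 bases before and 50 bases after a RefSeq start site (RefSeq sequences on GRCm38.p6, whose chromosome coordinates are those of mm10), and capitals mark the bases from that site onward.
Lef1 downstream start, chr3:131112541-131112840, plus strand: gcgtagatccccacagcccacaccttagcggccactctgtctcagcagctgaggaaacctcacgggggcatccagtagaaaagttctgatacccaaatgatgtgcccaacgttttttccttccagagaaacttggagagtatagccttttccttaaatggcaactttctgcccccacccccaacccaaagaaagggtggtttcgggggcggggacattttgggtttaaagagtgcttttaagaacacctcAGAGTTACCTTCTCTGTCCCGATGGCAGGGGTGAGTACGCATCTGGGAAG
Lef1 nearest window to the first start, chr3:131110073-131110372, plus strand: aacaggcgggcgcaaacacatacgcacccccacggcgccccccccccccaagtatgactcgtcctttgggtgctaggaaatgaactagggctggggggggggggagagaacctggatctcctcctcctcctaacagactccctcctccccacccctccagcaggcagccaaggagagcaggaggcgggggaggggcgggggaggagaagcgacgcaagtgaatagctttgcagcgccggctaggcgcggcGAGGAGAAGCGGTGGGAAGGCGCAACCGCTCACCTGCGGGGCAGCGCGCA
The downstream window held 51.7% G and C and 8 CpG, and the window nearest to the first start held 67.3% and 21 CpG. That window is built on a RefSeq site at 131110323 and ends before the start of Lef1-201 at 131110471, so it does not contain that start. The median over 32851 mouse promoter windows was 52.7% G and C. On either strand, neither window held CTTTGAT (a TCF and LEF motif found in 3.73% of all windows), CCGGAAG (an ETS motif, 8.86%) or TGTTTAC (a forkhead motif, 3.65%). These letters are absent from the windows, and nothing follows for the binding of the factors.

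**Figure D2:**
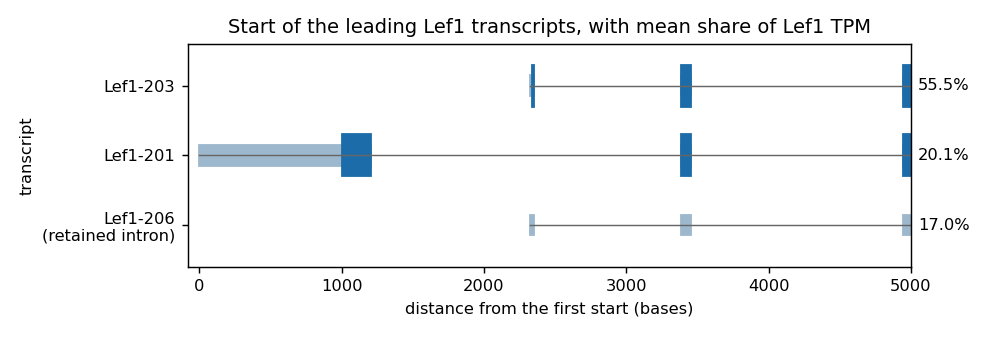
Start region of the leading Lef1 transcripts, drawn to scale over the first 5000 bases from the first start, with exons as pale boxes, coding parts as tall dark boxes and introns as lines. The numbers at the right are mean shares of Lef1 TPM, 55.5% for Lef1-203, 20.1% for Lef1-201 and 17.0% for Lef1-206.

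Tcf7 has 2 annotated transcripts, with starts 443 bases apart. Tcf7-201, from the downstream start, took 73.8%, 74.6% and 74.7% of Tcf7 TPM, and Tcf7-202 took 26.2%, 25.4% and 25.3%. The shares of the libraries were within 1 percentage point of each other. Tcf7-201 has 883 exonic bases that Tcf7-202 lacks, and Tcf7-202 has 154 of its own, all of them noncoding. Only 47 bases precede the coding start of Tcf7-201, so most of its own bases lie after the coding sequence. The split therefore does not measure use of the starts alone. Both transcripts carry the same annotated coding sequence of 303 codons, which begins as follows, with the start codon in capitals (chromosome 11, minus strand).
Tcf7-201 and Tcf7-202: ATGtacaaagagactgtctactctgccttc
Long TCF-1 forms, which bind beta-catenin, start upstream of the short ones. In Tcf7-202 the frame before the annotated start codon was open for 61 codons up to the 5′ end of the transcript, with 0 in-frame ATG. Long and short TCF-1 therefore cannot be told apart by the coding annotation of these transcripts. The RefSeq windows of the Tcf7 starts held 76.3% G and C (the upstream start) and 64.3% (the downstream start). The downstream window held 1 match each to the ETS and forkhead motifs above.

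Tox (ENSMUSG00000041272.11, chromosome 4, 6686353 to 6991557, minus strand) had 114, 91.6 and 96.0 TPM, highest in library 1, and averaged 101 ± 12.2 TPM. Its only coding transcript, Tox-201 with 526 codons, took 70.5%, 77.6% and 67.7% of Tox TPM. The retained-intron transcripts Tox-203 and Tox-204 took 14.2 ± 1.30% and 6.11 ± 2.61%, and the noncoding Tox-202 took 7.72 ± 2.24% (SD, n = 3). Satb1 minus Tox was -0.74, -0.15 and -0.57 in log2(TPM + 1), so Satb1 was lower in every library, with the smallest difference in library 2.

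Of the forkhead factors, Foxo1 (ENSMUSG00000044167.6, chromosome 3, 52268336 to 52353221, plus strand) had 72.9, 87.3 and 80.9 TPM in libraries 1 to 3. Foxo3 (ENSMUSG00000048756.11, chromosome 10, 42181841 to 42276755, minus strand) had 3.02, 3.32 and 2.22 TPM. Foxp1 (ENSMUSG00000030067.17, chromosome 6, 98925338 to 99522721, minus strand) was the most abundant, with 232, 265 and 225 TPM. No ranges of these factors overlapped, and all were highest in library 2. The means were 80.4 ± 7.19 TPM for Foxo1, 2.85 ± 0.57 TPM for Foxo3 and 240.2 ± 21.4 TPM for Foxp1, which puts Foxo1 28.2-fold above Foxo3. Foxo1 minus Foxp1 was -1.65, -1.59 and -1.46 in log2(TPM + 1). Without correction for length this difference turned round, to 0.45 on the log2 scale of depth-scaled counts. The length used for scaling was 8616 bases for Foxo1, and 2117, 2192.5 and 2028 bases for Foxp1 in libraries 1 to 3. The Foxp1 length is a value over transcripts that differ widely in annotated length, such as Foxp1-228 at 2121 bases and Foxp1-204 at 7177 bases. The direction of this difference therefore depends on the Foxp1 lengths in the annotation.

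Foxo1 has 1 annotated transcript, Foxo1-201 with 652 codons, which took all of its TPM. The antisense gene Gm20402 (chromosome 3, 52268435 to 52269435, minus strand) has 674 of its 687 exonic bases inside Foxo1 exons. It was listed at 116, 132 and 127 TPM, above Foxo1 in every library. Whether the counting used strand is stated in no source used here, so reads of Foxo1 and Gm20402 cannot be told apart over these bases. Foxo1 expected counts, at 13860, 14598 and 16794 in libraries 1 to 3, were far above those of Gm20402, at 1630, 1630 and 1954. The Foxo1 counts cover 8665 exonic bases and the Gm20402 counts 687, so counts and TPM order these genes differently.

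Foxp1 has 31 annotated transcripts, more than any other of these factors, though some, such as Foxp1-201 and Foxp1-205, took no TPM in any library. Foxp1-228, with 706 codons, took 20.6%, 25.2% and 24.0% of Foxp1 TPM. Foxp1-230, with 576 codons, took 14.8%, 16.8% and 13.7%, and Foxp1-225, with 577 codons, took 7.50%, 4.57% and 9.66%. Both of these start their coding sequence downstream of Foxp1-228 and so lack amino-terminal codons. Foxp1-228 was above Foxp1-230 in all 3 libraries by 8.18 ± 2.21 percentage points, and their TPM bounds were apart in 2. As annotated, Foxp1-228 is almost all coding, with 2118 of 2121 bases, and its TPM is scaled to that short length. Foxp1-204, with 705 codons and 7177 bases, held more expected counts, at 3372, 3482 and 3106, against 2185, 2682 and 2685 for Foxp1-228. Which form leads thus depends on the scaling by annotated length. The coding starts are shown with the start codon in capitals (chromosome 6, minus strand).
Foxp1-228: ATGatgcaagaatctgggtctgagacaaaa
Foxp1-230: ATGatgacacctcaggttatcactcctcaa
The other Foxp1 transcripts above 5% were the coding Foxp1-204 and Foxp1-222, at 8.94 ± 0.78% and 5.44 ± 2.15%, the retained-intron Foxp1-211 at 11.4 ± 1.21%, and Foxp1-218 and Foxp1-223, whose coding ends are missing, at 10.3 ± 2.90% and 5.12 ± 0.62% (SD, n = 3). Of the Foxo3 transcripts, Foxo3-203 with 672 codons took 66.1%, 59.9% and 79.7%, and Foxo3-202 with 244 codons took 21.7%, 36.6% and 20.3%. These shares rest on 338, 298 and 304 expected counts for the whole gene, and their bounds were apart in 2 libraries.

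Of the chromatin factors, Bcl11b (ENSMUSG00000048251.15, chromosome 12, 107910403 to 108003602, minus strand), a zinc finger protein needed for T lineage commitment, had 219, 259.8 and 243 TPM and averaged 241 ± 20.3 TPM. Library 1 was its lowest. Satb1 (ENSMUSG00000023927.15, chromosome 17, 51736187 to 51833290, minus strand), a genome organizer, had 68.4, 82.3 and 64.2 TPM and averaged 71.6 ± 9.48 TPM. The ranges did not overlap, and Bcl11b stood 3.36-fold above Satb1.

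Bcl11b-203, with 812 codons, took 72.9%, 74.3% and 73.4% of Bcl11b TPM, and Bcl11b-201, with 884 codons, took 23.6%, 25.1% and 24.4%. The shares barely moved between libraries, and the bounds on TPM were apart in all 3. Bcl11b-201 includes an exon of 216 coding bases (72 codons) that Bcl11b-203 skips. The junctions that tell them apart are shown as 15 bases before and 15 bases after the join, with capitals after it. On the minus strand of chromosome 12, position 107989465 is joined to 107917414 in Bcl11b-203 and to 107965887 in Bcl11b-201.
Bcl11b-203: aggagaacattgcagGTAAAGATGAGCCTT
Bcl11b-201: aggagaacattgcagGGCCGTGCAGGCCTG
Bcl11b-201 has 5223 exonic bases that Bcl11b-203 lacks, and Bcl11b-203 has none of its own, so the split also rests on sequence outside the skipped exon. The leading Satb1 forms differed in their starts and in their untranslated length, with 3461 bases in Satb1-204, 2896 in Satb1-203 and 6243 in Satb1-208. Their shares therefore do not measure use of the starts alone. Satb1-204, Satb1-203 and Satb1-208 share 764 codons and took 48.7%, 42.4% and 55.8%, then 16.1%, 20.7% and 10.8%, then 12.9%, 9.68% and 8.86% of Satb1 TPM in libraries 1 to 3. Satb1-207, with 795 codons, took 5.11 ± 0.99%, and the retained-intron Satb1-205 took 5.23 ± 2.16% (SD, n = 3). Satb1-204 was lowest in library 2, where Satb1-203 was highest.

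Ets1 (ENSMUSG00000032035.15, chromosome 9, 32636221 to 32757820, plus strand), the founding member of the ETS family, had 788, 788 and 720.2 TPM and averaged 765 ± 39.1 TPM. Library 3 was lowest in TPM, and library 1 in TMM-scaled counts. Myb (ENSMUSG00000019982.15, chromosome 10, 21124935 to 21160984, minus strand) had 16.5, 14.1 and 13.2 TPM and averaged 14.6 ± 1.69 TPM, highest in library 1. Ets1 stood 52.4-fold above Myb.

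Ets1-201, with 440 codons, took 71.5%, 78.8% and 75.6% of Ets1 TPM, and Ets1-202, with 353 codons, took 18.3%, 12.1% and 15.5%. Library 2 was highest for the first and lowest for the second. Ets1-202 skips an exon of 261 coding bases (87 codons), which encodes part of the region that restrains DNA binding by the full-length protein. On the plus strand of chromosome 9, position 32734188 is joined to 32738099 in Ets1-201 and to 32752799 in Ets1-202, with capitals after the join.
Ets1-201: ggagagccagtcgtgGTAAACTCGGGGGCC
Ets1-202: ggagagccagtcgtgGAAGTGGGCCGATCC
Ets1-201 has 3104 exonic bases that Ets1-202 lacks, mostly outside that exon. The retained-intron transcript Ets1-203, from a start 59801 bases upstream, took 9.44 ± 0.70% (SD, n = 3).

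Myb was the only one of these factors whose 2 leading coding forms changed order between libraries. Myb-201, with 636 codons, took 42.5%, 43.0% and 48.1% of Myb TPM, and Myb-203, with 755 codons, took 45.5%, 45.7% and 39.8%. Myb-201 was lower in libraries 1 and 2 and higher in library 3. Myb-201 minus Myb-203 was 0.84 ± 6.47 percentage points, with p = 1.0 in the exact sign-flip permutation test, and the TPM bounds overlapped in all 3 libraries. The longer form includes an exon of 357 coding bases (119 codons). On the minus strand of chromosome 10, position 21146186 is joined to 21143092 in Myb-201 and to 21145325 in Myb-203, with capitals after the join.
Myb-201: cagtttatagattctTTCTTGAACACTTCC
Myb-203: cagtttatagattctGATTCTTCGTGGTGT
The retained-intron transcript Myb-205 took 8.68 ± 1.02% (SD, n = 3).

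**Figure D3:**
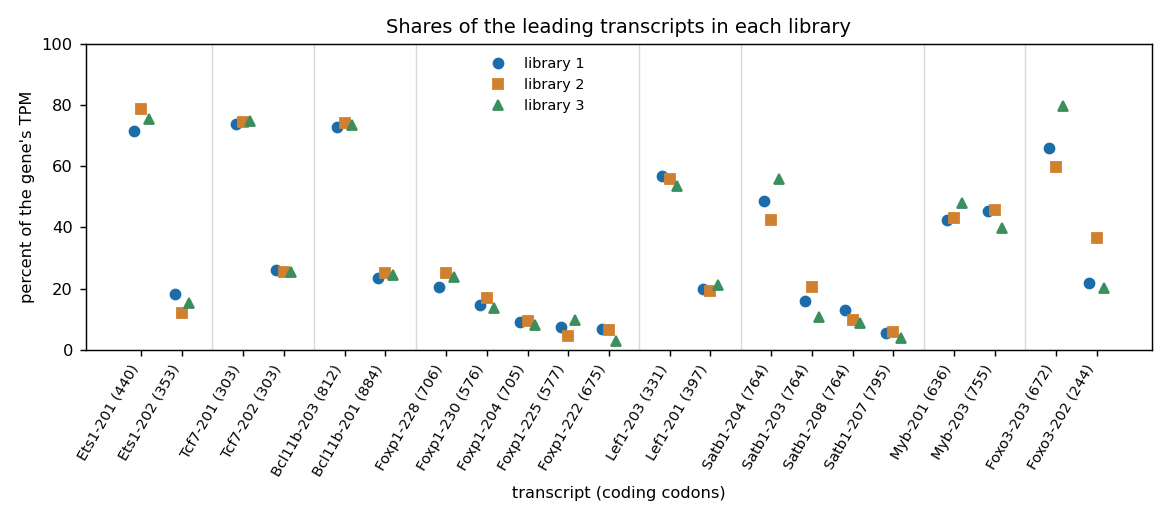
Share of a gene's TPM taken by its complete coding transcripts with a mean of at least 5%, with a symbol for each library and the number of coding codons in brackets. Lef1-203 lies above Lef1-201 in all 3 libraries, while Myb-201 and Myb-203 change order in library 3.

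Long and short forms were then set against each other in all 10 genes. A long form was taken as a complete coding transcript of at least 80% of the gene's longest coding length. At this limit 7 of 10 genes have no annotated short form, so their comparison was fixed by the annotation, and only Ets1, Bcl11b and Foxo3 could come out either way. In these 3, long exceeded short in all 3 libraries. The long share over the 10 genes ran from 60.4 ± 2.20% for Foxp1 (SD, n = 3) up to 100% for Tcf7 and Foxo1. Tcf7 and Foxo1 each have a single annotated coding sequence, so their 100% says nothing about long TCF-1. This limit counts Lef1-203, Foxp1-230, Foxp1-225, Ets1-202 and Myb-201 as long, at 80.2% to 84.2% of the longest. With a limit of 90%, 6 genes have a short form and Tcf7, Foxo1, Tox and Satb1 have none. Long exceeded short in all libraries in 4 of these 6, namely Ets1, Bcl11b, Foxo3 and Foxp1. At that limit Lef1 had 22.2 ± 1.91% long and 55.5 ± 1.65% short, Myb had 43.7 ± 3.36% and 44.5 ± 3.12%, and Foxp1 had 38.1 ± 3.06% and 22.3 ± 0.96% (SD, n = 3). Lef1 was the only gene in which short exceeded long in every library, and it was so as well where long meant the most upstream coding start, a rule under which only Lef1 and Foxp1 have a short form. Among genes with both forms, the exact sign-flip permutation p was 0.25, except for Myb, for which it was 1.0 at the 90% limit. Retained-intron transcripts took 20.3 ± 2.83% of Tox, 19.6 ± 2.47% of Lef1, 16.4 ± 1.54% of Foxp1, 10.5 ± 2.15% of Myb, 9.45 ± 0.70% of Ets1 and 7.45 ± 1.92% of Satb1 TPM (SD, n = 3).

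**Figure D4:**
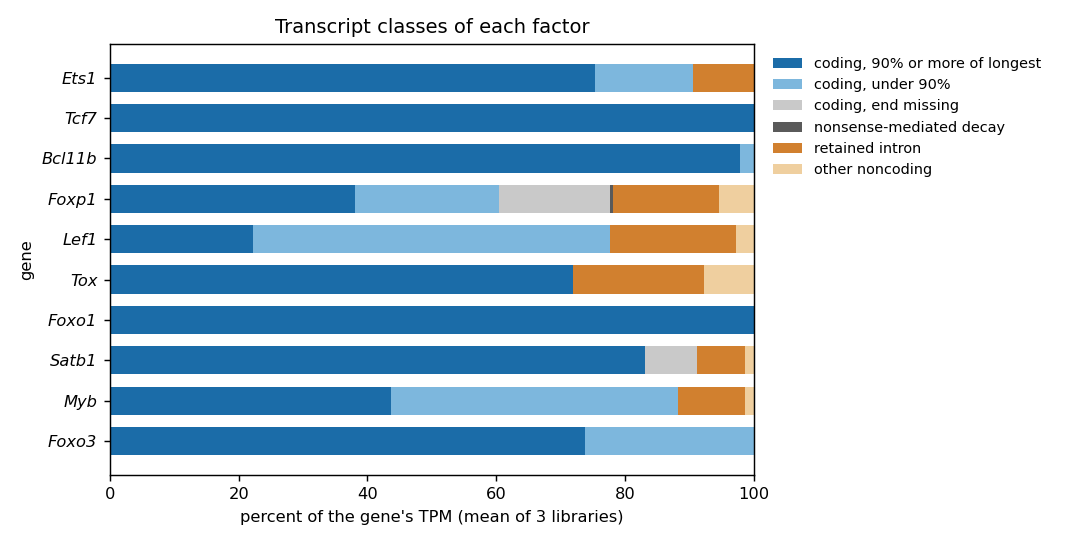
Mean share of each gene's TPM by transcript class, with coding forms split at 90% of the gene's longest coding length. Lef1 has 22.2% in the long class and 55.5% in the short class, and Tcf7 and Foxo1, with 1 annotated coding sequence each, fill the first class.

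The libraries, though labelled technical, differed by more than counting noise for most of these factors. In a chi-square test of TMM-scaled counts, adjusted by Benjamini-Hochberg over 18253 genes, 9 of 10 were called at 0.05, against 77% of all genes tested. Foxo3 was not called (adjusted p = 0.257). The highest library exceeded the lowest by 1.06-fold for Ets1 to 1.26-fold for Lef1, with a median of 1.20-fold over the 10, against 1.37-fold over all genes tested and 1.14-fold over genes with a mean count from 1000 to 100000, of which 84.3% were called. After scaling, 8 of 10 were highest in library 2, of which 7 were called, against 28.1% of all genes called and highest there. Tox and Myb were highest in library 1 and were called, against 25.7% of all genes. Bcl11b and Foxo1 were nearly level between libraries 2 and 3 and lower in library 1, by 0.19 and 0.18 on the log2 scale against their mean. Without library 1, these 2 and Myb lost their calls, which left 6 of 10, against 57.8% of all genes. Without library 2, Foxp1 and Satb1 lost theirs, which left 7 of 10, against 48.8%, and without library 3 the count was 9, against 60.4%. The shares by library and with a library left out are over all genes tested. They were not computed for genes of similar count, among which calls were more frequent (84.3% against 77%).

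Markers of resting and activated T cells moved with the libraries too. Of the resting markers, Klf2 had 281, 409.8 and 289 TPM in libraries 1 to 3, Ccr7 had 245, 309.6 and 236 TPM, and Igfbp4 had 112, 206 and 157 TPM. All of these were highest in library 2. The activated markers Icos, Tnfrsf9, Klrg1, Batf, Gzmb and Ccr8 summed to 1391, 881 and 1117 TPM, and 6 of 6 were called and lowest in library 2, against 31.2% of all genes. Treg markers summed to 2973, 2554 and 2667 TPM. The part of these values in the differences between libraries was not tested.

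**Figure D5:**
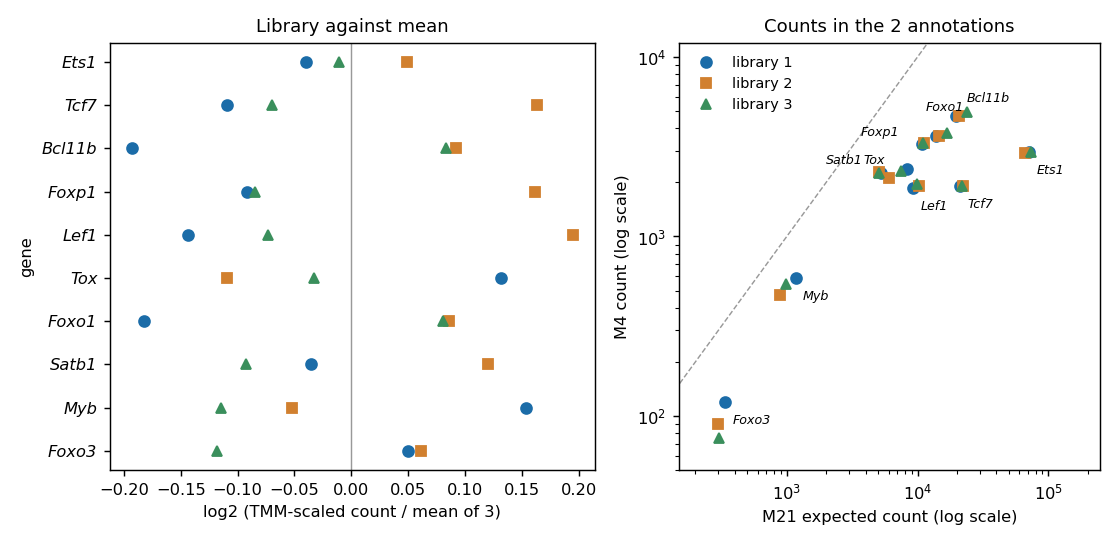
Left, log2 of each library's TMM-scaled count over the mean of the 3, by gene. Right, whole-number M4 counts against M21 expected counts on log axes, with a dashed line where both are equal. Library 2 is the rightmost symbol for 8 of 10 genes, and Ets1 and Tcf7 lie farthest below the dashed line.

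The authors' second gene tables, counted against annotation M4, held fewer reads over all genes, with 9718021, 8945992 and 9904722 in libraries 1 to 3. The expected counts totalled 35592206, 31611422 and 37728241. Among the 10 factors, the gap was widest for Ets1 and Tcf7. Ets1 had 2954, 2908 and 2944 M4 counts, against 71188, 66194 and 73345 expected counts, and Tcf7 had 1911, 1914 and 1914 M4 counts, against 21200, 22389 and 22000. The M4 share of expected counts was 4.18% for Ets1, 8.75% for Tcf7, 19.4% for Lef1 and 52.8% for Myb. In M4 counts per kilobase, Foxp1, Bcl11b, Tcf7 and Lef1 all came before Ets1, and Myb and Foxo3 stayed last. In M4 counts, 8 of 10 factors differed between libraries in the same test, against 51.9% of all genes. Tox and Myb were not called there (adjusted p = 0.593 and 0.183), and Foxo3 was (adjusted p = 0.012, 1.61-fold, highest in library 1). Tcf7 minus Lef1 was 0.11 in M4 counts per kilobase on the log2 scale and was no longer apart, and Satb1 minus Tox was 0.0018.

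Among 17 paralogs of these factors, 8 were detected, with a median of 0.96 TPM. The highest were Foxp3, the factor that defines Tregs, at 97.6 ± 1.04 TPM, the HMG-box gene Tox4 at 67.6 ± 2.43 TPM and the ETS gene Fli1 at 59.4 ± 6.94 TPM. Foxo6 was listed at 0 in all 3 libraries. Outside the 10 factors, the closest relatives of Tcf7 and Bcl11b, singled out after their values were seen, averaged under 1 TPM, with Tcf7l1 at 0.84 ± 0.59, Tcf7l2 at 0.96 ± 0.33 and Bcl11a at 0.47 ± 0.19 TPM.

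Of 17 cofactors and partner factors found, 16 were detected, with a median of 48.2 TPM. The highest were Aes, a short member of the TLE family, at 889 ± 70.6 TPM, the deacetylase Hdac1 at 241 ± 21.9 TPM and Ctnnb1, which encodes beta-catenin, at 167 ± 8.95 TPM. The lowest was the corepressor Tle2 at 1.97 ± 1.08 TPM. Quiescence genes were all detected, 17 of 17, with a median of 75.5 TPM, led by the antiproliferative gene Btg1 at 847 ± 29.3 TPM, Slfn2 at 506 ± 16.5 TPM and the transcription factor Klf2 at 327 ± 72.1 TPM. The cyclin-dependent kinase inhibitor Cdkn2c was lowest at 18.8 ± 2.61 TPM.

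Genes that FOXO factors are known to activate were detected in 15 of 15 cases, with a median of 105 TPM. Klf2, as above, and the inhibitory receptor Ctla4, at 281 ± 46.9 TPM, were among the highest, while Irs2 was lowest at 10.5 ± 0.105 TPM. Genes listed as upstream brakes on FOXO factors were detected in 11 of 11 cases, with a median of 75.2 TPM. That list includes Pdk1, which in mouse encodes a pyruvate dehydrogenase kinase rather than the Akt-activating kinase encoded by Pdpk1. The list was led by the 14-3-3 genes Ywhaz at 680.3 ± 42.2 TPM and Ywhab at 182 ± 13.2 TPM and the kinase gene Ikbkb at 183 ± 6.14 TPM. Sgk1, a kinase that phosphorylates FOXO factors, was lowest at 13.2 ± 5.15 TPM. Of the FOXO targets, 8 of 15 were called and highest in library 2, of the upstream brakes 6 of 11, and of the quiescence genes 7 of 17, against the 28.1% over all genes. Another 7 of the quiescence genes were called and highest in library 3. Ccr7 and Klf2 are counted both among the FOXO targets and among the resting markers.

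For 9 of the factors, the gene nearest in log2(TPM + 1) over the 3 libraries was taken from 85 genes, the factors and these lists together. Foxp1 lay nearest to Hdac1 at a Euclidean distance of 0.042, Bcl11b to Klf3 at 0.087, Lef1 to Vsir at 0.195, Tox to Tcf3 at 0.206 and Foxo1 to Pdk1 at 0.236. Satb1 lay nearest to Mxd4 at 0.255 and Ets1 to Btg1 at 0.263. The low genes were farther off, with Myb nearest to Mtor at 0.474 and Foxo3 to Mybl2 at 0.567. Nearness here is of level in 3 libraries.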

How the data were processed

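Polyadenylated RNA of 1 Treg biosample was sequenced in 3 libraries, grouped by their labels. The authors' gene and transcript tables hold expected counts and TPM with lower and upper bounds of unstated level, and the transcript tables the percent of a gene's TPM per transcript, per the file headers. For the factors as whole genes, these bounds lie around the posterior mean TPM and can exclude the TPM. They used GENCODE annotation M21 on mm10 and transcriptome alignments, per the deposited notes. The second gene tables that the authors deposited hold whole-number M4 counts from genome alignments (totals 9718021, 8945992 and 9904722). No source used here gives the aligner, quantifier or strand setting. Rows that name no gene (0.170% to 0.218% of expected counts) stayed out of library sizes and tests.

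Expected counts were rounded and scaled by TMM (edgeR 4.0.16, R 4.3.3). The chi-square test left out genes with a mean count under 10 and was tested on simulated data. Levels were compared in log2(TPM + 1). Coding lengths and starts came from the M21 annotation, and transcript starts within 100 bases were joined. Named were the 10 factors, their transcripts with a mean share of at least 5%, the 3 highest and the lowest gene of each list, nearest genes and selected overlapping genes. A few of these are left out of the text. The members and lists were chosen with earlier results of these data known. Alternatives covered DESeq2 1.42.0 size factors, count filters, pseudocounts, posterior means, M4 counts, form limits and each library left out. Python 3.11.15 with pandas 2.3.3, scipy 1.17.1 and Biopython 1.88 was used.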

Additional observations from a re-analysis of the deposited data

How the results depend on the processing

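Levels, pairs and counts of calls mostly kept their direction. The number of overlapping neighbours in the order of levels was 2, and between 1 and 3 when each library was left out in turn. All 6 pairs were apart under each alternative but M4 counts per kilobase, where 4 were. There Tcf7 minus Lef1 fell to 0.11 and was no longer apart, and Satb1 minus Tox was 0.0018. Without length correction, Foxo1 minus Foxp1 was 0.45. The long share of Lef1 was 22.2% at the 90% limit and by the most upstream coding start, below its short share, and that of Myb was 43.7% at the 90% limit. By construction, these settings count the shorter coding forms as short. No paired analysis was possible because the 3 libraries form 1 group. Depth limits Foxo3 above all, which had 298 to 338 expected counts. The cause of the low M4 counts was not tested.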
